A study of Mus musculus with 6 samples.

Results

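The 7 genes examined here are poorly characterized or make an RNA other than mRNA, and all had lower values in sorted virus-specific CD8+ T cells of JHT mice compared with WT mice: mt-Rnr1, 1110038B12Rik, 2410006H16Rik, 1810041H14Rik, Gm36738, BC064078 and 2610528A11Rik. They were taken by symbol and were 7 of the 1018 genes of the deposited table, in which 35 genes were lower and 983 higher in JHT. The genes were selected on their lower values in JHT in the same 6 libraries, so the group difference is given as a description and carries no p-value. RefSeq classed 6 of the 7 as RNA genes, and only 2610528A11Rik as protein coding.

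The bulk RNA sequencing compared mice with and without B cells, and asked how B-cell deficiency changes gene expression in virus-specific CD8+ T cells. JHT mice have no mature B cells, since the JH segments of their antibody heavy chain gene are deleted, and WT mice served as controls. Both groups were adult mice on the C57BL/6J background, infected with murine cytomegalovirus (MCMV), and spleens of 3 mice per group were taken at day 7. Cells positive for CD8 and for an M45 tetramer, which marks T cells specific for an MCMV peptide, were sorted in equal numbers, so the groups share infection, time, tissue and gate. JHT mice lack B cells from birth and make no antibody, and these conditions cannot be told apart here. Libraries are named WT-1 to WT-3 and JHT-1 to JHT-3, and values are given in that order.

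The 7 genes represent several kinds of transcript. mt-Rnr1 is encoded by mitochondrial DNA and makes the ribosomal RNA of the small subunit of the mitochondrial ribosome, which translates the respiratory chain proteins encoded there. Small nucleolar RNAs (snoRNAs) of the C/D class guide methylation of ribosomal RNA, and in mammals most are cut from introns of host genes, whose spliced RNA is often short-lived. Other long noncoding RNAs (lncRNAs) are transcribed antisense to, or between, protein-coding genes, and most have no known function.

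1110038B12Rik and 2410006H16Rik are host genes, and their snoRNAs are shown because they are the best understood product of either locus. Coordinates are on GRCm38. 1110038B12Rik (chr17:34950238-34952471, minus strand) held Snord52 (chr17:34950952-34951017) and Gm25744 (chr17:34952013-34952075). 2410006H16Rik (chr11:62602877-62604807, plus strand) held Snord49b (chr11:62603079-62603150), Snord49a (chr11:62603450-62603521) and Snord65 (chr11:62604515-62604586). The sequences are GENCODE M21 transcripts, and all 5 carried the C box TGATGA and the D box CTGA, marked in capitals, which the snoRNP proteins bind.
Snord52: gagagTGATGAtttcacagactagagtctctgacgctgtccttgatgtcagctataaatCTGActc
Gm25744: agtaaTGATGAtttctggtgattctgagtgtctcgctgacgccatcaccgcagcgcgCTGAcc
Snord49b: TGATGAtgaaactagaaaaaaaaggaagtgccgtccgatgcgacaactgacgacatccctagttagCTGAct
Snord49a: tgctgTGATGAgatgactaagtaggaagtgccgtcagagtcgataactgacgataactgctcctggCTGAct
Snord65: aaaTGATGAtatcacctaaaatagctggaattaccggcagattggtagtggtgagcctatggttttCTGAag
Snord49a and Snord49b shared a run of 13 bases, aggaagtgccgtc, while other pairs shared at most 10. None of the 5 snoRNAs had a value in the table. The table therefore gives no level for the snoRNAs themselves.

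All 3 snoRNAs of 2410006H16Rik lay in introns of its single annotated transcript of 5 exons, with no exonic overlap. The 3 spliced transcripts of 1110038B12Rik likewise spared both snoRNAs, whereas some transcripts with a retained intron covered them. Reads from such unspliced RNA would cover the same bases as the snoRNAs.

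**Figure D1:**
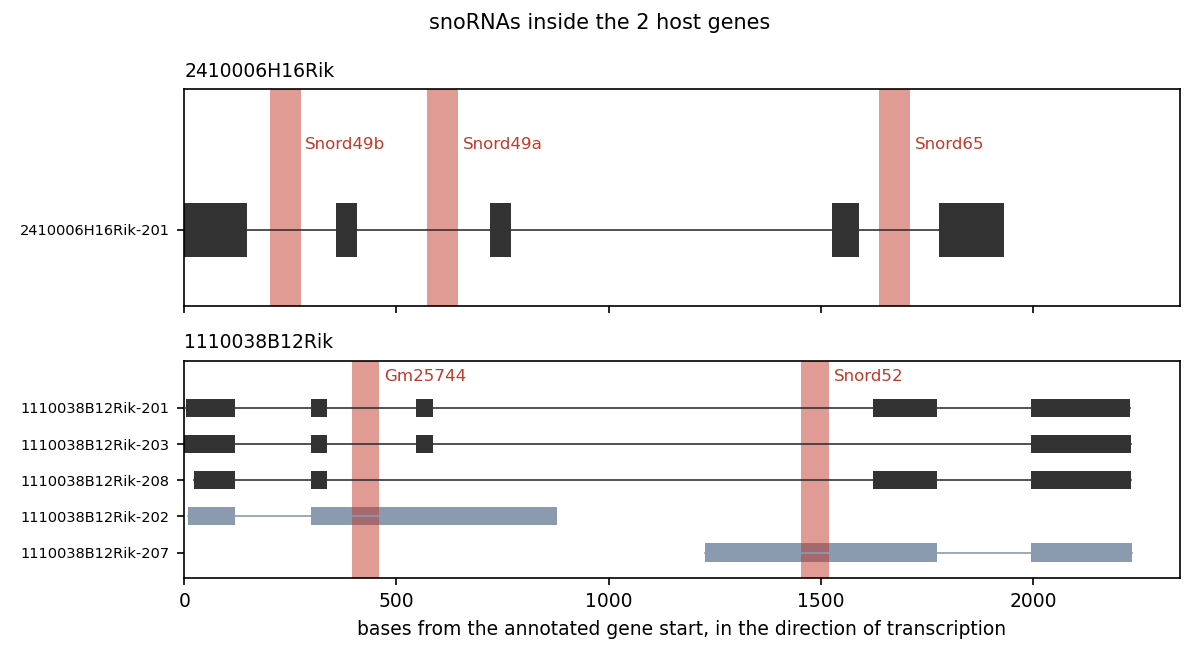
Maps of 2410006H16Rik (top) and 1110038B12Rik (bottom), drawn to scale in bases from the annotated gene start. Boxes are exons of annotated transcripts (dark, spliced; grey-blue, retained intron, 2 of the annotated forms shown) and red bands are the snoRNAs, which fall in introns of every dark transcript.

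The promoters of both host genes are printed because host genes of snoRNAs, like ribosomal protein genes, commonly start transcription in a run of pyrimidines. Each runs from 250 bases before to 50 bases after the RefSeq start (GRCm38.p6, strand of the gene). Capitals mark the longest run of C and T that touches the 20 bases on either side of the start, and TATAAA where present on the strand shown.
1110038B12Rik, chr17:34952422-34952721, minus strand: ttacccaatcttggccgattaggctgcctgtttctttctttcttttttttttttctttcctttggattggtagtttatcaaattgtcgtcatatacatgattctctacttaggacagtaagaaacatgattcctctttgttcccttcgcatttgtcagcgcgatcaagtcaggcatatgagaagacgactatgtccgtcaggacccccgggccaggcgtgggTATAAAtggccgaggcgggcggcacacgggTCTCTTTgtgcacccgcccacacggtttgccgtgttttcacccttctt
2410006H16Rik, chr11:62602627-62602926, plus strand: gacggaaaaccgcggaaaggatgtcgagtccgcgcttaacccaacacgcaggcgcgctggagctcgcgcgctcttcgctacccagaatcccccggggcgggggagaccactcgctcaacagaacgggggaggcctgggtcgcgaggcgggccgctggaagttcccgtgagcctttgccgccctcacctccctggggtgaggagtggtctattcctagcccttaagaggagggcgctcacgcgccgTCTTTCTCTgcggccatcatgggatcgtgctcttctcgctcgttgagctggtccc
The run measured 7 bases in 1110038B12Rik and 9 in 2410006H16Rik. Among 32851 promoters of the same length, 24.8% had a run of 7 or more and 10.9% one of 9 or more. Counted on either strand, TATAAA occurred in 13.6% of all promoters and in that of 1110038B12Rik but not of 2410006H16Rik. A promoter was matched for 5 of the 7 genes.

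2410006H16Rik, the mouse counterpart of human SNHG29, had values of 403, 322 and 388 in WT and of 175, 182 and 142 in JHT. Values are the expression signals of the deposited table, scaled for gene length and library, and therefore allow levels of different genes to be set side by side. Every JHT library lay well below every WT library, and the lowest WT value was 1.77 times the highest JHT value. The means were 371 ± 43.3 in WT and 167 ± 21.5 in JHT (SD, n = 3), a 2.23-fold difference. The spread within both groups was small, with a coefficient of variation of 11.7% in WT and 12.9% in JHT. The log2 change from WT to JHT, fitted on log2(value + 1), was -1.15 (SE 0.37). Each SE given here borrows from the spread of the other table genes, so it does not measure the spread of a single gene.

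1110038B12Rik, the mouse counterpart of human SNHG32, was less abundant, with 33.2, 30.8 and 34.8 in WT but 7.82, 2.49 and 17.2 in JHT. The WT mice were almost identical, whereas the JHT mice spanned a 6.91-fold range. Whole reads were recovered from the ratios between libraries. JHT-2 rested on 44 recovered reads, with an exact 95% Poisson interval of 32.0 to 59.1, and JHT-3 on 233. Counting error of reads alone did not cover the gap between them, and sampling of molecules before amplification was not tested. Means were 33.0 ± 2.01 and 9.17 ± 7.45 (SD, n = 3), 3.59-fold lower in JHT, with a log2 change of -2.04 (SE 0.39). Without JHT-3 the ratio was 6.40 and without JHT-2 it was 2.63, so the size of the difference depended on single JHT mice.

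The ratio of the host genes to each other also differed between the groups in its spread. 2410006H16Rik was 12.1, 10.4 and 11.1 times as high as 1110038B12Rik in WT, a narrow range. In JHT the ratio was 22.4, 73.2 and 8.26, on both sides of the WT values.

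mt-Rnr1 (MT, positions 70 to 1024, plus strand; 1 exon, 955 bases) was the most abundant of the 7. Its values were 817, 649 and 509 in WT, against 376, 185 and 245 in JHT. The groups did not overlap, but WT-3 and JHT-1 came within 1.35-fold of each other. The means were 658 ± 155 in WT and 269 ± 97.6 in JHT (SD, n = 3), 2.45-fold lower in JHT, and the log2 change was -1.32 (SE 0.35). Of all genes in the table it ranked 11th by WT mean and 67th by JHT mean. Nearly all genes of the table were higher in JHT, so a lower gene loses rank there. 2410006H16Rik likewise went from rank 20 to rank 116, and the fall is not particular to mt-Rnr1. Its 5303 to 16299 recovered reads per library made counting error of reads small beside the difference between mice. Copies of mt-Rnr1 in the nuclear genome were not analysed here.

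The cDNA of these libraries was primed with oligo-dT, and mt-Rnr1 does not carry the long poly(A) tail of a nuclear mRNA. The stretch of 60 bases richest in A is shown because it gives the composition that such a primer meets inside the transcript. It lies at MT 695 to 754 and holds 32 A, with runs of 4 or more A in capitals.
mt-Rnr1: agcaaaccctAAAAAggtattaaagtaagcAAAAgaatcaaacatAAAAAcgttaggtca
Over its whole length mt-Rnr1 had 37.8% A and 35.8% GC, with 13 runs of 4 or more A and none longer than 5. Where priming took place, and whether priming differed between libraries, was not tested.

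TrnD, the mitochondrial tRNA for aspartate, was the only other mitochondrially encoded gene with a value, out of 37. Its values were 35.6, 22.1 and 24.8 in WT and 7.39, 2.86 and 8.71 in JHT, a 4.35-fold difference in means with no overlap. These rest on few recovered reads, 52, 37 and 44 in WT and 12, 6 and 14 in JHT, so its ratios are uncertain. The level of mt-Rnr1 was 20.5 to 29.4 times that of TrnD in WT and 28.1 to 64.8 times in JHT, ranges that overlapped. The protein-coding genes of mitochondrial DNA and the large subunit ribosomal RNA had no value here and were not analysed.

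Of 33 genes for mitochondrial transcription and ribosomal RNA maturation, 4 had a value and all were higher in JHT. Rbfa, a maturation factor of the small subunit, had a mean of 30.7 in JHT and was 3.19-fold higher. Mettl17 (4.68-fold), needed for small subunit assembly, was higher too, as were Mtg1 (2.67-fold) and Mtg2 (4.74-fold), GTPases that act on the large subunit. Of 33 genes listed as small subunit proteins, Mrps2, Mrps18b and Mrps30 had a value and were 9.92-, 2.69- and 2.12-fold higher in JHT. Mrps30 is listed by its symbol, but its protein is assigned to the large subunit. Mrps2 rose from values of 0.0611, 1.82 and 0.269 in WT. The table was higher in JHT for nearly all its genes, so these counts are not particular to mitochondria.

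BC064078 (chr6:128992952-129008040, plus strand) is annotated by GENCODE as a transcribed unprocessed pseudogene and by RefSeq as an lncRNA, among the Clec2 genes of the natural killer gene complex, which encode C-type lectins. The first 50 bases of an exon of 105 bases are shown, on the plus strand of GRCm38, beside the matching bases of Clec2g and Clec2d, since reads could in principle be shared between such copies. Capitals mark bases that differ from BC064078.
BC064078, chr6:129002246-129002295: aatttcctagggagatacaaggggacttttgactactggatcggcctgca
Clec2g, chr6:128948696-128948745: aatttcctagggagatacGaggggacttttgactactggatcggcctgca
Clec2d, chr6:129184778-129184827: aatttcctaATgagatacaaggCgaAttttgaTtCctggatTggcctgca
Clec2g was identical at 49 of 50 bases and Clec2d at 43 of 50. No stretch of 75 bases of any of the 7 members occurred in an annotated transcript of another gene. Shorter identical pieces exist, so the BC064078 values are uncertain where reads could have been divided among these copies. Neither Clec2g nor Clec2d had a value in the table.

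BC064078 reached 28.0, 24.6 and 36.9 in WT, and 2.83, 17.5 and 16.1 in JHT. JHT-1 stood apart from the other JHT mice, with 59 recovered reads (exact 95% Poisson interval 44.9 to 76.1) against 471 and 332. The means were 29.8 ± 6.35 and 12.2 ± 8.11 (SD, n = 3), 2.45-fold lower in JHT. The log2 change was -1.51 (SE 0.39), and the gene's own SD within groups on that scale was 0.93. Without JHT-1 the ratio was 1.77 and the log2 change -0.77, a smaller difference than with all mice. JHT-2 and JHT-3 nevertheless lay below all WT libraries, the closest pair being 1.40-fold apart.

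2610528A11Rik (chr14:37102140-37114022, minus strand), the only protein-coding member, has the RefSeq synonym Gpr15l. Its product is a small secreted peptide of epithelia that binds GPR15, a chemoattractant receptor that guides T cells to the colon and skin. The open reading frame is printed because it sets this gene apart from the 6 RNA genes, with the start and stop codons in capitals.
2610528A11Rik: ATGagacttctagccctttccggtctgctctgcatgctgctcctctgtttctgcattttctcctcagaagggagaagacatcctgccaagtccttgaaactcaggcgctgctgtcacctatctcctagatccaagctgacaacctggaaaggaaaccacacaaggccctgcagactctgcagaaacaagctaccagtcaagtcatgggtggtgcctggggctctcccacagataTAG
The frame spans 237 bases with 78 codons before the stop, in a transcript of 754 bases.

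2610528A11Rik was the least abundant member, with values of 13.4, 15.1 and 19.4 in WT and 7.70, 4.77 and 1.21 in JHT. All JHT libraries were below all WT libraries, and JHT-3 was the lowest with 21 recovered reads (exact 95% Poisson interval 13.0 to 32.1). The JHT mean of 4.56 ± 3.25 was 3.50-fold below the WT mean (WT SD 3.06, n = 3 each), for a log2 change of -1.81 (SE 0.40). Without JHT-1 the ratio was 5.34 and without JHT-3 it was 2.56. Gpr15, the receptor, had no value in the table, and neither did any of the 8 epithelial markers examined. Whether the reads came from the sorted T cells or from other cells was not tested.

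1810041H14Rik (chr14:121876725-121879409, minus strand) is an antisense lncRNA that overlaps the start of Ubac2, a gene for an endoplasmic reticulum membrane protein, on the opposite strand. Its values were 72.9, 58.9 and 43.7 in WT and 24.2, 24.5 and 22.3 in JHT. The JHT mice were nearly identical, with a coefficient of variation of 5.16%, while the WT mice varied by 25.0%. The means were 58.5 ± 14.6 and 23.6 ± 1.22 (SD, n = 3), 2.47-fold lower in JHT, with a log2 change of -1.24 (SE 0.40). The library kit does not record strand, but no exonic base was shared with Ubac2, so exonic reads of the genes do not coincide. Ubac2 had no value in the table.

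Gm36738 (chr15:78574411-78581616, minus strand) is a long intergenic noncoding RNA with 1 annotated transcript of 2 exons. Its values were 325, 157 and 256 in WT and 111, 117 and 72.6 in JHT. WT-2 was the lowest WT library and only 1.34 times the highest JHT library, the narrowest gap among the 7 genes. The means were 246 ± 84.5 and 100 ± 24.1 (SD, n = 3), 2.45-fold lower in JHT, which is -1.25 as a log2 change (SE 0.38). With 752 to 3058 recovered reads per library, counting error of reads was small beside the spread. Sampling of molecules before amplification was not tested.

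**Figure D2:**
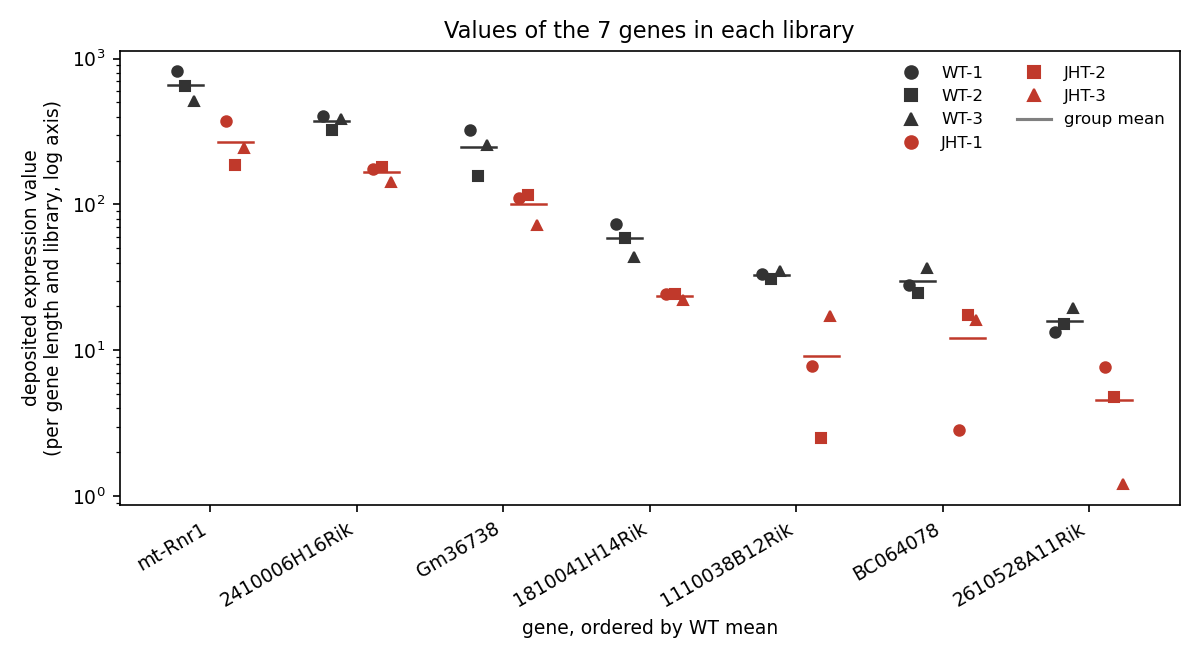
Deposited expression values of the 7 genes in each library on a log axis, ordered by WT mean (black, WT; red, JHT; symbols, replicate number; lines, group means). The groups do not overlap for any gene, and JHT values spread most for 1110038B12Rik, BC064078 and 2610528A11Rik.

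In all 7 genes no JHT library reached the lowest WT library, with values as deposited and under 3 of 4 other scalings of the table. Those 3 take the table as reference, where 983 genes were higher in JHT. They lower JHT values by construction and are no independent check. The share of all genes in the table that were lower in JHT without overlap was 3.44%, and the share without overlap in either direction was 100%, because the table itself holds only genes selected for a difference between these groups. Nothing about the members follows from their count for this reason. The median log2 change of the members was -1.32, against -1.49 for the other 28 lower genes and 1.47 for all 1018. The smallest ratio of means among the lower genes was 2.02, for AI847159, just inside the 2-fold limit by which the authors selected genes. Genes outside that limit were not analysed here. Among the 7, 2410006H16Rik lay nearest to it.

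**Figure D3:**
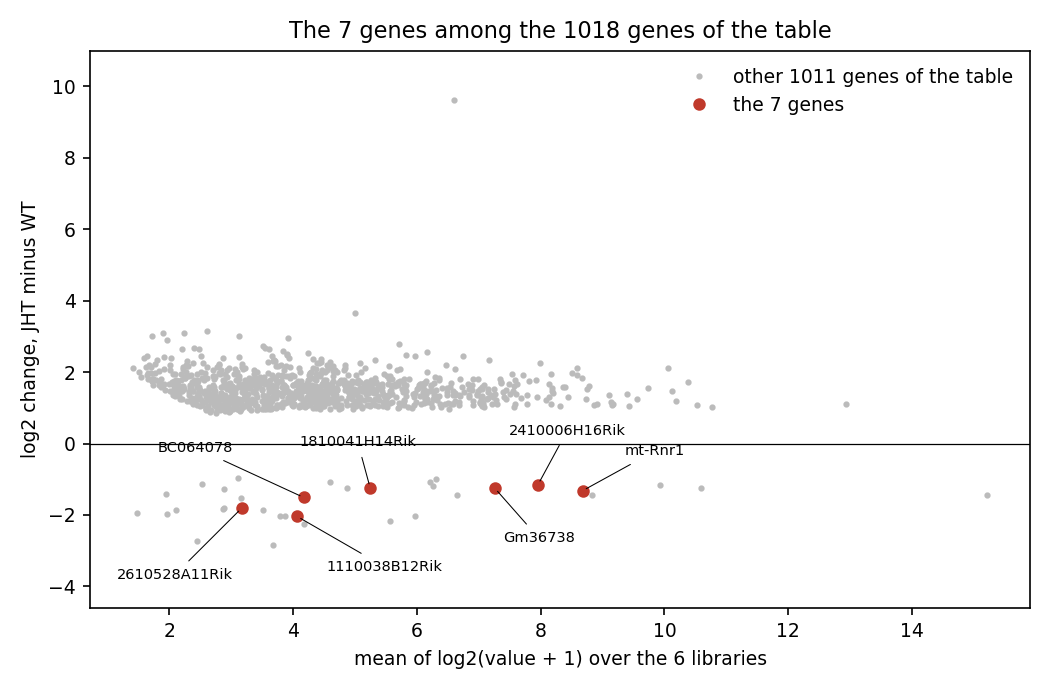
Log2 change from WT to JHT on log2(value + 1) against mean level for the 1018 genes of the table (grey) and the 7 genes (red). The 7 genes lie between -2.04 and -1.15, among the 35 lower genes, while the median of the table is 1.47; the empty band around 0 reflects the selection of the table.

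The order of levels was nearly the same in both groups. In WT it ran mt-Rnr1, 2410006H16Rik, Gm36738, 1810041H14Rik, 1110038B12Rik, BC064078 and 2610528A11Rik. Neighbours that overlapped in WT were 2410006H16Rik with Gm36738, and 1110038B12Rik with BC064078. In JHT, BC064078 stood above 1110038B12Rik, but these overlapped, as did 1110038B12Rik and 2610528A11Rik. The 7 values summed to 1693, 1257 and 1288 in WT and 705, 534 and 517 in JHT, of which mt-Rnr1 supplied 34.7% to 53.3%.

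The abundant members varied less between JHT mice than the scarce ones. The highest JHT library was 1.10 to 2.03 times the lowest for mt-Rnr1, 2410006H16Rik, Gm36738 and 1810041H14Rik, but 6.18 to 6.91 times for the other 3. In WT all 7 stayed within 1.13 to 2.07 times. No single JHT mouse carried the low values: the lowest was JHT-1 for BC064078, JHT-2 for 1110038B12Rik and mt-Rnr1, and JHT-3 for the other 4. As these are bulk samples, fewer cells that make an RNA cannot be told apart from less of that RNA per cell.

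For each member the 2 most alike genes of the table were found by the root mean square (RMS) difference of centred log2(value + 1) over the 6 libraries, as a description. 2410006H16Rik was closest to Cma1 (0.14) and Ifi27l2a (0.16), a mast cell protease and an interferon-induced gene. Gm36738 was closest to Cma1 (0.17) and Tmsb15l (0.18), a thymosin beta gene. mt-Rnr1 was closest to Armc3 (0.18) and to the member 1810041H14Rik (0.30). The latter was closest to the lncRNA Gm36756 (0.17) and to 2410006H16Rik (0.24).

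For 1110038B12Rik and BC064078, the most alike genes had their lowest value in the same JHT mouse. They were picked by profile over these same libraries, so the choice itself favours a shared lowest mouse. 1110038B12Rik was closest to the lncRNA Gm30957 (RMS difference 0.36) and to TrnD (0.37), and all 3 were lowest in JHT-2. Gm30957 had 1.55 there against 11.3 and 10.7 in the other JHT mice, and TrnD rested on 6 recovered reads in JHT-2. BC064078 was closest to LOC105244530 (0.26) and the lncRNA Gm41410 (0.53). LOC105244530 had 0.174 in JHT-1 (3 recovered reads) against 6.60 and 5.85, and Gm41410 was listed at 0 in JHT-1, so both were at or near the floor there. 2610528A11Rik had no close partner, with Ccl5 and Tmsb15l both at 0.52. Ccl5 encodes a chemokine of effector CD8+ T cells and was the most abundant gene of the lower set, with 18772 to 27406 in JHT.

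**Figure D4:**
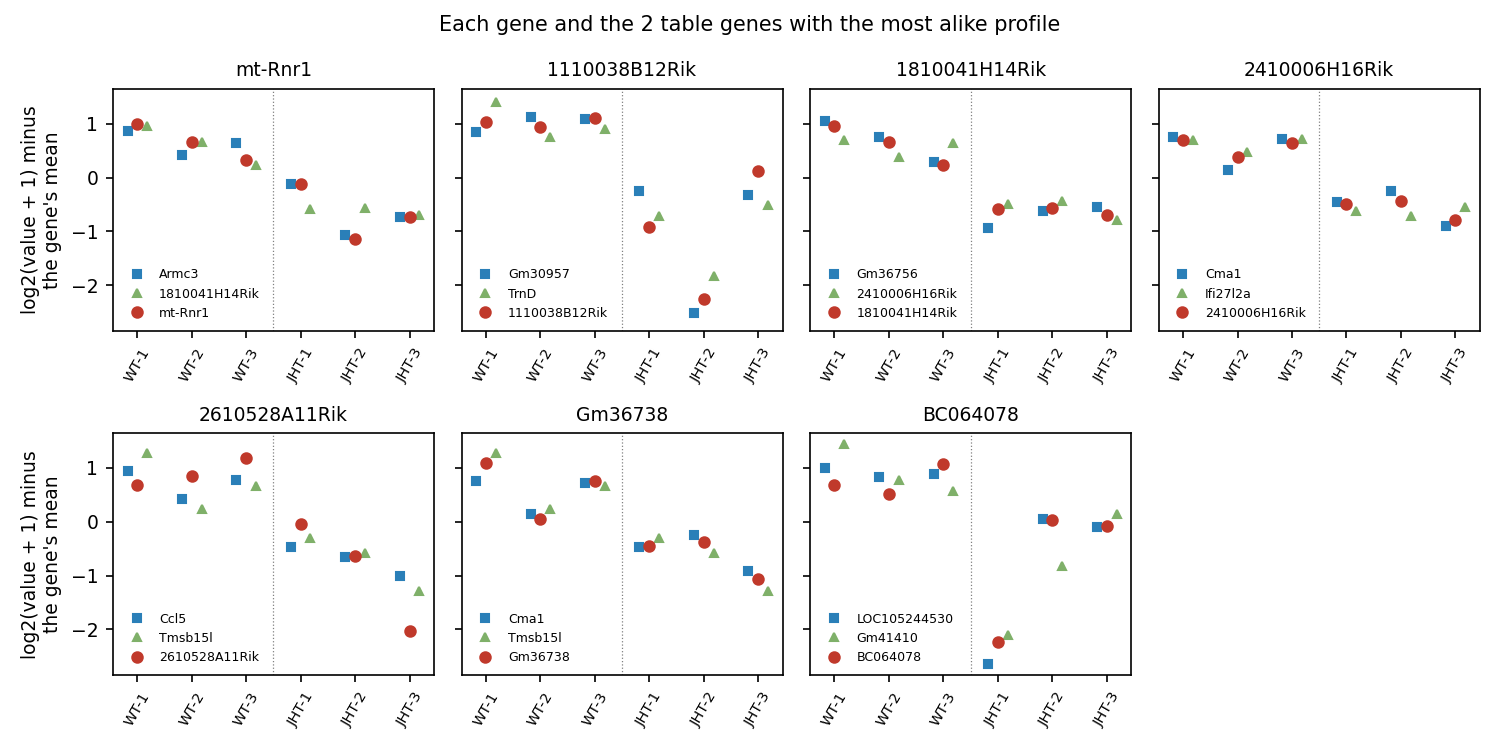
log2(value + 1) minus each gene's own mean in the 6 libraries, for each member (red circles) and its 2 most alike table genes (blue squares and green triangles); the dotted line parts WT from JHT. BC064078 and its partners are lowest in JHT-1, and 1110038B12Rik and its partners in JHT-2, which the choice of partners by profile favours.

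Further genes were drawn from lists of the pathways around the members. Of 25 snoRNA host RNA genes 4 had a value: Zfas1 and the members 1110038B12Rik and 2410006H16Rik were lower in JHT, and Snhg15 was higher. Zfas1, which hosts C/D snoRNAs, had 124, 122 and 101 in WT and 48.0, 41.2 and 61.5 in JHT, 2.30-fold lower. Snhg15 had 29.4, 37.4 and 41.1 in WT and 71.0, 59.0 and 94.7 in JHT, 2.08-fold higher. Host genes with a value thus lay on both sides, and the promoter runs of C and T measured 4 bases in both Zfas1 and Snhg15.

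Spliced host RNAs are commonly degraded by nonsense-mediated decay, and snoRNAs are bound by a set of core and assembly proteins. Of 15 decay genes only Eif4a3, an exon junction helicase, had a value, 2.92-fold higher in JHT. Of 20 snoRNP protein genes only Ruvbl1, an assembly ATPase, had a value, 3.21-fold higher in JHT. None of 24 abundant or well-known noncoding RNA genes had one. Since 983 of the 1018 genes were higher in JHT, a single gene in that direction is not particular to its list.

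RNA genes were unevenly spread over the table. Among genes matched in RefSeq, 17 of the 29 lower genes (58.6%) were RNA genes, of which 6 are members, against 6 of the 950 higher genes (0.632%). The members were chosen partly for being RNA genes, and the other 11 lower RNA genes had a median log2 change of -1.83. The share of symbols of the clone or predicted-gene type was 42.9% among lower and 2.24% among higher genes. Neighbours were sought only among table genes whose symbol matched a single GENCODE gene. For the 6 nuclear members, the nearest of these on the same chromosome were all higher in JHT. So were 983 of all 1018 genes, and this direction is therefore not particular to these loci. TrnD, the only other mitochondrially encoded gene with a value, was lower. The closest neighbour of a nuclear member was Trpv2, a cation channel gene 2.36 kb from 2410006H16Rik. It had 3.00, 4.49 and 4.12 in WT and 8.86, 7.91 and 15.3 in JHT. For the other nuclear members the nearest gene matched in this way lay at least 93.9 kb away.

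Cell type markers gave little information, because the table holds selected genes only. Of 20 CD8+ T cell genes, Lck and H2-D1 had a value (2.29- and 3.15-fold higher in JHT), and Cd8a had none. None of the listed 20 B cell, 6 CD4+ T cell, 9 NK cell and 23 myeloid markers had a value. The lists do not hold every gene of these cell types, and table genes outside them were not examined as markers. Of 14 erythroid and platelet markers only Bpgm did, with 1.65 to 6.14 in WT and 10.2 to 13.9 in JHT. The identity of the sorted cells could therefore not be checked from these files. Recovered reads in the table genes numbered 1910223 to 2889931 per WT library and 4044962 to 5749547 per JHT library, of which the members held 22012 to 25147 and 8473 to 11958.

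How the libraries were scaled against each other set the size of every member's change, and one scaling turned 5 of them around. Setting the median of the table genes equal moved the median log2 change of all genes from 1.47 to 0.05 and that of the members from -1.32 to -2.85. Quantile normalization and an equal total without Ccl5 gave -2.63 and -2.57 for the members. Setting the median of the other 28 lower genes equal moved all genes to a median of 3.15 and the members to 0.55. Under it, mt-Rnr1, 1810041H14Rik, 2410006H16Rik, Gm36738 and BC064078 changed sign, and only 1110038B12Rik (-0.32) and 2610528A11Rik (-0.17) stayed lower. That scaling takes the other lower genes as its reference and so removes the decrease they share. The scalings to the table as a whole take mostly higher genes as reference and so deepen each decrease. The table does not hold the unselected genes that would fix the scale.

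**Figure D5:**
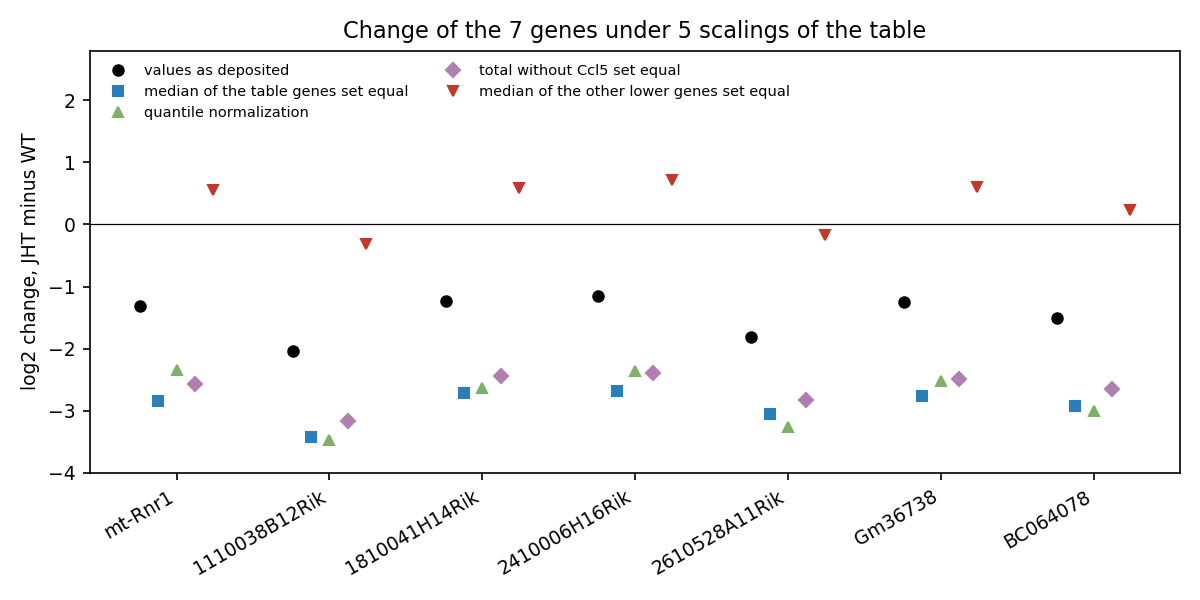
Log2 change from WT to JHT of the 7 genes with values as deposited and under 4 other scalings of the table. All points lie below 0 except 5 under the scaling to the median of the other lower genes, which sets their common decrease to about 0. The scalings to the table as a whole take mostly higher genes as reference and deepen the decrease.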

How the data were processed

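RNA from sorted cells was amplified with an oligo-dT primed kit for full-length cDNA, and libraries were made with Nextera XT and read as paired ends on an Illumina instrument. The authors trimmed adaptors and used CLC Genomics Workbench at default settings, with GRCm38 as the genome per the submitters' processing notes. The annotation behind the counting is not given in the sources used here. For each of the 6 libraries the deposited values are an expression signal that the authors scaled to gene length and to the library, without saying whether as RPKM or TPM. Its other columns held the authors' difference of means, fold change, p-values and log2 fold change, and were not used, except to check that all 1018 genes passed p under 0.05 and a fold of 2.

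Samples were grouped by title, and each title gave a replicate number. Whole reads were recovered for 1018 of 1018 genes from ratios between libraries, within a tolerance of 0.001. They give relative depth, since the reads per unit of value, relative to WT-1, were 1.15 for WT-2 and 1.21 for WT-3, and 1.11, 1.43 and 1.10 for the JHT libraries. Intervals on reads are exact Poisson and cover counting error of reads only, not sampling of molecules before amplification. Log2 changes and their SE came from limma 3.58.1 in R 4.3.3 on log2(value + 1), with a trend, a filter of at least 1 in 3 libraries and Benjamini-Hochberg adjustment at 0.05. This scale understates the change of low genes. The SE is moderated: each gene's variance is drawn towards that of table genes of like level. It was 0.35 to 0.40 for the members, although their own SD within groups ran from 0.18 to 0.93. It therefore understates the error of the genes that varied most between mice and overstates that of the steadiest.

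The members and the gene lists were chosen with earlier results of these data known. Named genes are the members, the 2 table genes most alike to each by profile, every member with a value of the 15 lists, and genes inside or antisense to a member; Trpv2 and AI847159 were chosen with their values in view, and Clec2g and Clec2d, which have no value, after the match of their sequence to BC064078. TrnD is the RefSeq symbol of mt-Td on the list. Positions and transcripts came from GENCODE M21 (GRCm38), which matched all 7 members, promoters from RefSeq on GRCm38.p6. Alternatives covered the pseudocount, 4 scalings, reads as a share of table reads, the filter, the trend, a replicate block and each library left out.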

Additional observations from a re-analysis of the deposited data

How the results depend on the processing

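Over the alternatives tried for the 7 genes, the log2 change stayed within the spread between replicates in 63 cases, moved further in 30 and turned around in 5. The 63 include the replicate block, which could not alter the change. With the median of the other lower genes set equal, the change was 0.55 for mt-Rnr1, 0.59 for 1810041H14Rik, 0.72 for 2410006H16Rik, 0.61 for Gm36738 and 0.23 for BC064078, the median of the members was 0.55 and the number of members without overlap went from 7 to 0. The construction of that scaling removes the decrease the lower genes share. The median of the members was -2.85 with the median of the table genes equal, -2.63 after quantile normalization and -2.57 with the total without Ccl5 equal. Their reference is mostly genes higher in JHT, which deepens the decrease by construction. These 3 scalings gave 56, 58 and 107 genes with adjusted p under 0.05 (limma), against 1018 as reported and 986 with the lower genes equal. Leaving out each library gave medians of -1.55 to -1.15 and 956 to 1010 genes. The members without overlap numbered 7 to 7, which was fixed in advance, since removing a library cannot make separate groups overlap. Without JHT-1, 978 of the 1008 genes tested were called. The lower genes among them numbered 32 against 35, and included 6 of the 7 members.

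The replicate numbers did not clearly pair the libraries. Same-numbered WT and JHT libraries correlated at 0.17, 0.03 and 0.11 in their deviations from the group means over genes, and libraries with the number 2 did not correlate best with each other. With the replicate block the median of the members stayed at -1.32, which the balanced design fixed in advance, and 1018 genes were called. Depth limits mainly 2610528A11Rik and 1110038B12Rik, with 21 and 44 reads in their lowest JHT libraries. The table holds selected genes, so no scaling could be checked against unselected ones.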
